A study of Mus musculus with 12 samples.

Results

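Rab GTPases are the subject here, chosen as every symbol of the count table made of Rab, a number, and at most a letter and a further digit, which leaves out effectors and regulators. The rule found 59 Rab genes among the 35303 symbols of the table. Each was given 1 role from textbook knowledge, with 7 genes of early endosomes, 6 of late endosomes and lysosomes, 9 of recycling, 13 of secretion, 3 of lysosome-related organelles, 15 of the ER and Golgi, and 6 with other roles.

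Bulk RNA-seq compared 3 groups of MDSCs with 4 libraries each, to ask how NP decoration and its rapamycin load change these cells. MDSCs (myeloid-derived suppressor cells) are immunosuppressive CD11b+Gr1+ cells, here grown with IL-6 and GM-CSF from the bone marrow of wild-type female C57BL/6 mice aged 6 to 10 weeks. The MDSC group carried no NP, MDSC-NP-Blk carried PLGA NPs without drug, and CITED carried PLGA NPs loaded with rapamycin, an inhibitor of mTORC1. All groups then spent 24 hours in medium with 40 ng/ml of IL-6 before RNA extraction. NPs were attached through azido sugars on the cell surface, and whether the MDSC group also received the azido sugar is not given in the sources used here. The labels call the libraries biological replicates without naming animals or preparations. MDSC-NP-Blk therefore differs from MDSC in the NP and its attachment, and CITED differs from MDSC-NP-Blk in the rapamycin load.

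Rab proteins are small GTPases that switch between a GTP-bound form on membranes and a GDP-bound form held in the cytosol, and each marks a particular compartment. Exchange factors load them with GTP, GTPase-activating proteins switch them off, and effectors bound to the active form tether, move, or fuse vesicles. In myeloid cells Rab5 and Rab7 proteins mark the successive stages through which engulfed particles mature, Rab4 and Rab11 proteins return receptors to the surface, and Rab27 proteins dock granules before release.

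Upstream sequences are shown for members that carry the results below. Rab20 had the highest log2 fold change between CITED and MDSC among Rab genes averaging at least 50 normalized counts. Rab7 had the highest level, and Rab27a the highest TPM in MDSC among the members lower in CITED. Each sequence is the 250 bases before the start of the canonical transcript in GENCODE release 39 on build GRCm39, printed 5′ to 3′ on the strand of the gene. Capitals mark the GC box GGGCGG or its complement CCGCCC, which was searched on both strands. The Rab20 window lies at chr8:11528711-11528960 on the minus strand, the Rab7 window at chr6:88022296-88022545 on the minus strand, and the Rab27a window at chr9:72951874-72952123 on the plus strand.
Rab20: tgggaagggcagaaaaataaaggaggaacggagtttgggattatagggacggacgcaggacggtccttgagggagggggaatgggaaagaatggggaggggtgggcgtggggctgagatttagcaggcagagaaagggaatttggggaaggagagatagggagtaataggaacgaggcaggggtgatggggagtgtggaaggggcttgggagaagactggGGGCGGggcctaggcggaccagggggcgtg
Rab7: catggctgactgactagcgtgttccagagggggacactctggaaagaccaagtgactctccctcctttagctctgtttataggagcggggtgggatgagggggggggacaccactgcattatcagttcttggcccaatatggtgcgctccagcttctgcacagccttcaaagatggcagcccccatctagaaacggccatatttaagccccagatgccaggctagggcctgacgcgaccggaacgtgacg
Rab27a: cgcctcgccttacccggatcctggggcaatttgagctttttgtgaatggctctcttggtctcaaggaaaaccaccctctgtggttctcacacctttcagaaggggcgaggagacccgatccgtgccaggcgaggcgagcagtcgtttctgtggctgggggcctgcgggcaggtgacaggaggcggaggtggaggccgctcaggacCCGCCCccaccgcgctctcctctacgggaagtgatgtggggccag
The box occurred once in the windows of Rab20 and Rab27a, at 30 and 45 bases from the start, and these letters were not in the window of Rab7. Of the 58 tested Rab genes, 28 had the box in this window (48.3%), compared with 40.3% of the windows of 17648 tested genes. The E-box CACGTG, searched likewise, was in 3 Rab windows (5.17%), those of Rab5a, Rab21, and Rab23, compared with 6.53% of all, and TGACTCA was in 0 compared with 3.38%. A match is a description of letters only.

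Libraries held 20604809 to 37855478 counts, so 3 counts corresponded to 7.92e-06 to 1.46e-05% of a library. Rab genes took 0.448 to 0.476% of the counts of a library. The tissue given in the labels is the CNS, although the cells were cultured from marrow. Snap25, Syt1, Rbfox3, Gfap, and Aqp4, picked afterwards as neural and glial genes, had 0 counts in all 12 libraries, whereas Mbp had 1492 to 3240 counts. The 8 genes that mark CD11b+Gr1+ cells were all found, and their summed normalized counts (MDSC, then MDSC-NP-Blk, then CITED, as in the next sentences) were 653000 to 741400, 878000 to 923500, and 699600 to 794500. Cell type markers differed between the groups. The summed level of 5 granulocyte progenitor markers was 66950 to 72860, 34370 to 36910, and 8102 to 9044, with 5 of 5 lower in each of the 3 comparisons. That of 8 mature neutrophil markers was 364600 to 386800, 545200 to 554000, and 416500 to 451900, and that of 8 monocyte and macrophage markers 52010 to 54850, 67280 to 70930, and 60470 to 64110. Of the latter 8, though, 3 were higher and 5 lower in CITED than in MDSC, and 3 and 4 in MDSC-NP-Blk. Of the 8 neutrophil markers, 5 were higher and 3 lower in CITED than in MDSC, and 7 and 0 in MDSC-NP-Blk. Against MDSC-NP-Blk, 2 neutrophil markers were higher and 3 lower in CITED. Dendritic cell markers (7 genes) summed to 838.2 to 1035, 1057 to 1210, and 1070 to 1122, and B cell markers (4 genes) to 545.3 to 724.2, 548.3 to 627.5, and 254.3 to 303.5. Of the dendritic cell markers, 1 was higher and 1 lower in CITED than in MDSC. The lists of T cells, NK cells (Ncr1 at 0), and erythroid cells summed to at most 84.18 in any library. The part of these markers in the differences between Rab genes was not tested, and in bulk RNA fewer cells of a type cannot be told apart from less RNA per cell.

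Of the 59 Rab genes, 58 had at least 2 counts over the 12 libraries and were tested. Rab3c, a neuronal vesicle Rab, had 0 counts in all libraries. In 45 Rab genes the normalized count (the count scaled by library size and TMM factor) averaged at least 50, and the other 14 were too low to describe in detail. Transcripts of the 45 had a median length of 3418 bases, compared with 3406 bases over the 10556 genes at the same level. The 59 genes lie on 18 chromosomes, with up to 7 on 1 chromosome.

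Levels can be compared between genes per length of transcript, as TPM computed here from the counts. Rab7, the Rab of late endosomes and lysosomes, had the highest TPM among Rab genes in MDSC, with 598 ± 12.7 (SD, n = 4, as throughout). Rab1a and Rab1b of ER-to-Golgi traffic followed with 179 ± 5.47 and 169 ± 6.86, and their libraries overlapped. The granule Rab Rab27a had a TPM of 152 ± 4.09, which overlapped the early endosome Rab Rab5c (146 ± 3.84). Other close relatives stood further apart in the MDSC libraries. Rab4b had a TPM of 65.3 ± 3.26 and Rab4a 0.478 ± 0.256, and Rab27a exceeded Rab27b, which had 2.67 ± 0.361. In Rab5, the order was Rab5c, Rab5b (117 ± 6.41), and Rab5a (42.4 ± 0.856), without overlap. Reads of some Rab genes cannot be assigned with certainty. In Rab43, 89.2% of 31-base words also occur in the transcripts of other genes, mainly Gm45140 (367 to 936 counts), and in Rab4b 80.4% occur in Gm21983 (0 counts). Smaller shares were found for Rab7 (15.9%, Rab7-ps1 with 0 to 13 counts), Rab5b (14.7%, Gm13991 with 0 to 5 counts), and Rab11b (11.2%, Rab11b-ps2 with 0 to 8 counts).

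More Rab genes were higher than lower in both NP groups compared with MDSC. In CITED against MDSC, 19 of 58 Rab genes were higher (32.8%) and 6 were lower (10.3%) at an adjusted p below 0.05, whereas 22.2% of all 17676 genes tested were higher and 22.2% lower. The 6 lower genes fell to 3 without MDSC replicate 1 or 3 or CITED replicate 2 or 3, and with the length correction. In MDSC-NP-Blk against MDSC, 21 were higher (36.2%) and 2 lower (3.45%), compared with 19.9% and 18.6% of all genes. The 2 lower genes fell to 1 without MDSC replicate 2 or 3 and to 0 without MDSC replicate 4 or MDSC-NP-Blk replicate 4. These comparisons share the MDSC libraries. CITED against MDSC-NP-Blk gave 6 higher (10.3%) and 7 lower (12.1%), near the 10.5% and 11.4% of all genes.

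The changes were small. With the added threshold of the study, a log2 fold change of 1 or more in size, Rab20 was the only Rab gene higher in CITED than in MDSC and 0 were lower, where 3.28% and 6.7% of all genes passed. The value of Rab20 was under 1 with library size only (0.89) and with the length correction (0.99). Rab15 was the only gene lower in MDSC-NP-Blk and 0 were higher (2.86% and 1.88% of all), and 0 Rab genes passed in either direction between CITED and MDSC-NP-Blk (0.651% and 2% of all). Among the 45 Rab genes averaging at least 50, the shares higher and lower were 42.2% and 13.3% in CITED against MDSC, where 35.6% and 32.3% of the 10556 genes at that level passed. They were 46.7% and 2.22% in MDSC-NP-Blk against MDSC (32.1% and 28.2% of all such genes), and 13.3% and 15.6% in CITED against MDSC-NP-Blk (16.9% and 18%).

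The balance between higher and lower calls depended on scaling. TMM factors were 1.118 to 1.148 in MDSC and 0.921 to 0.947 in the NP groups, and without them the median log2 fold change over all 10556 genes moved from 0.016 to -0.258 in CITED against MDSC and from 0.003 to -0.259 in MDSC-NP-Blk against MDSC. Scaled by library size only, 9 Rab genes were higher and 17 lower in CITED, and 8 were higher and 14 lower in MDSC-NP-Blk. This scaling shifts all genes of a comparison nearly alike, so the median log2 fold change of the 45 Rab genes stood 0.15 above that of all genes under either scaling by construction. All values below are relative to TMM scaling. Of the called genes, Rab1b, Rab3d, Rab7b, and Rab22a in CITED against MDSC and Rab4b, Rab9, Rab21, Rab35, and Rab40c in MDSC-NP-Blk against MDSC had a log2 fold change of 0 or below with library size only. Calls lost with library size only numbered 10 of 25 in CITED against MDSC, 13 of 23 in MDSC-NP-Blk against MDSC, and 0 of 13 in CITED against MDSC-NP-Blk, where the median moved from 0.007 to -0.005.

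**Figure D1:**
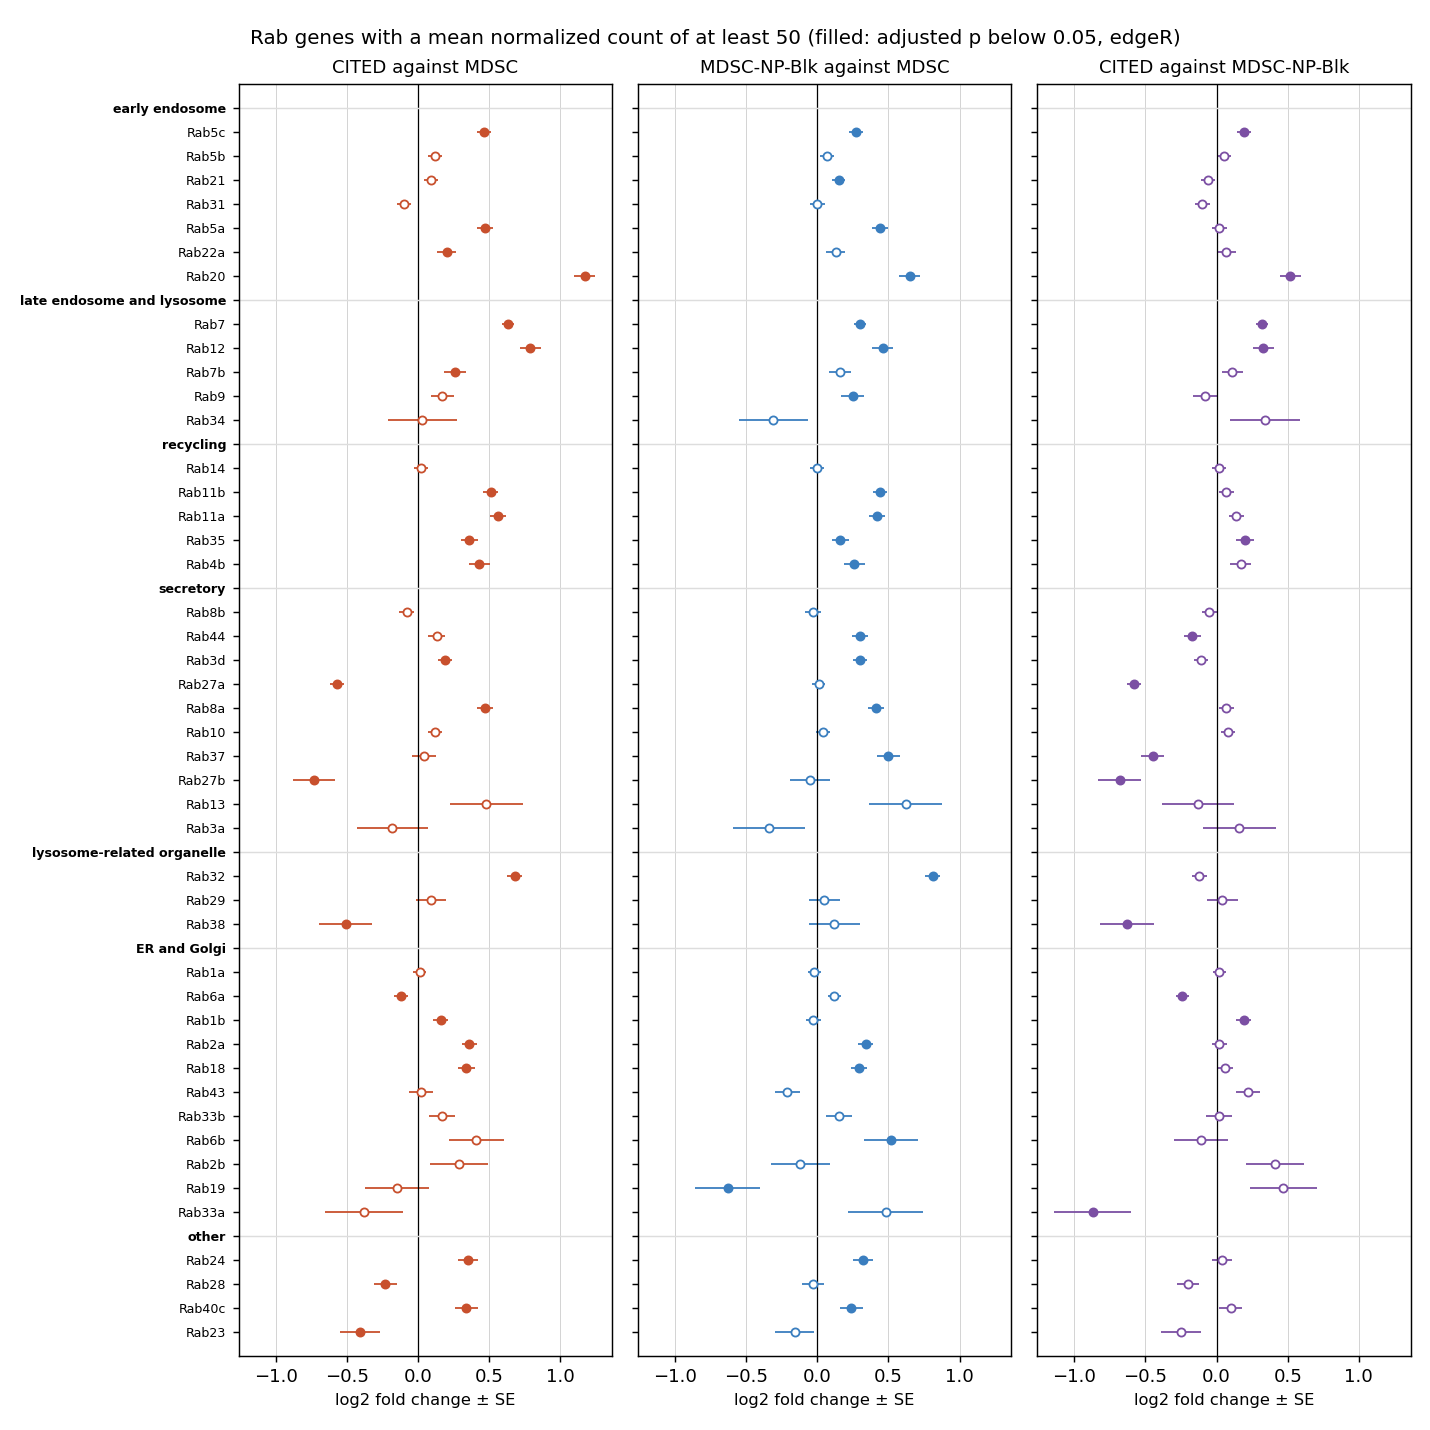
Log2 fold change ± SE (x axis, TMM scaling) of the 45 Rab genes with a mean normalized count of at least 50, ordered by role (y axis), in the 3 comparisons, each over 4 and 4 libraries. Filled points have an adjusted p below 0.05 in edgeR, and most filled points of both comparisons with MDSC lie right of 0 under this scaling, whereas those of CITED against MDSC-NP-Blk divide into 6 right and 7 left.

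Early endosome Rabs were higher or did not pass the test. Of the 7, which all averaged at least 50, 4 were higher (57.1%) and 0 lower in CITED than in MDSC. Among all genes at that level 35.6% were higher and 32.3% lower. Counts were likewise 4 (57.1%) and 0 in MDSC-NP-Blk (32.1% and 28.2% of such genes). In CITED against MDSC-NP-Blk they were 2 (28.6%) and 0 (16.9% and 18% of such genes). The median log2 fold change of the 7 was 0.2, 0.15, and 0.05 in the 3 comparisons.

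Rab20, which acts in the maturation of phagosomes, rose with NPs and rose further with rapamycin-loaded NPs. Its normalized counts, in the order of replicates 1 to 4 as for all genes, were 477, 507, 514, and 465 for MDSC, 839, 777, 749.5, and 709 for MDSC-NP-Blk, and 1115, 1092, 1097, and 1109 for CITED. The 3 groups did not overlap. The log2 fold change was 1.17 ± 0.07 (SE, as throughout) in CITED against MDSC (adjusted p = 2.5e-15, edgeR quasi-likelihood test, as below), 0.65 ± 0.07 (adjusted p = 7.8e-09) in MDSC-NP-Blk against MDSC, and 0.52 ± 0.07 (adjusted p = 8.3e-07) in CITED against MDSC-NP-Blk.

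The Rab5 proteins drive the fusion of early endosomes, and 2 of the 3 genes passed the test. Rab5a had normalized counts of 1584, 1684, 1604, and 1597 for MDSC, 2075, 2243, 2293, and 2187 for MDSC-NP-Blk, and 2280, 2213, 2190, and 2251 for CITED. Both NP groups lay above MDSC and overlapped each other, with log2 fold changes of 0.47 ± 0.06 (adjusted p = 7.4e-09) in CITED and 0.44 ± 0.05 (adjusted p = 3.1e-08) in MDSC-NP-Blk, and 0.02 ± 0.05 (adjusted p = 0.86) between them. Rab5c had normalized counts of 5768, 6002, 5887, and 5656 for MDSC, 7307, 6732, 6809, and 7289 for MDSC-NP-Blk, and 8268, 7363, 8148, and 8332 for CITED. Its 3 groups were separate, with 0.46 ± 0.05 (adjusted p = 8.3e-10) in CITED and 0.27 ± 0.05 (adjusted p = 2.7e-05) in MDSC-NP-Blk, and CITED above MDSC-NP-Blk by 0.19 ± 0.05 (adjusted p = 0.0037). With library size only the value of Rab5c in MDSC-NP-Blk was 0.01 and did not pass. Rab5b did not pass, with means of 4165 ± 231 for MDSC, 4376 ± 118 for MDSC-NP-Blk, and 4520 ± 155 for CITED and a log2 fold change of 0.12 ± 0.05 (adjusted p = 0.054) in CITED against MDSC.

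The other early endosome Rabs moved less. Rab21, which carries integrins, was higher in MDSC-NP-Blk than in MDSC (0.15 ± 0.05, adjusted p = 0.0084), though its direction flips with library size only. Rab22a, which links early endosomes to recycling, was higher in CITED (0.20 ± 0.07, adjusted p = 0.016), likewise except with library size only, and did not pass without CITED replicate 1 or 2 (range over all libraries left out, 0.16 to 0.24) or with the length correction (0.07). Rab31, of transport between the Golgi and endosomes, did not pass in any comparison, with log2 fold changes from -0.10 to 0.00.

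**Figure D2:**
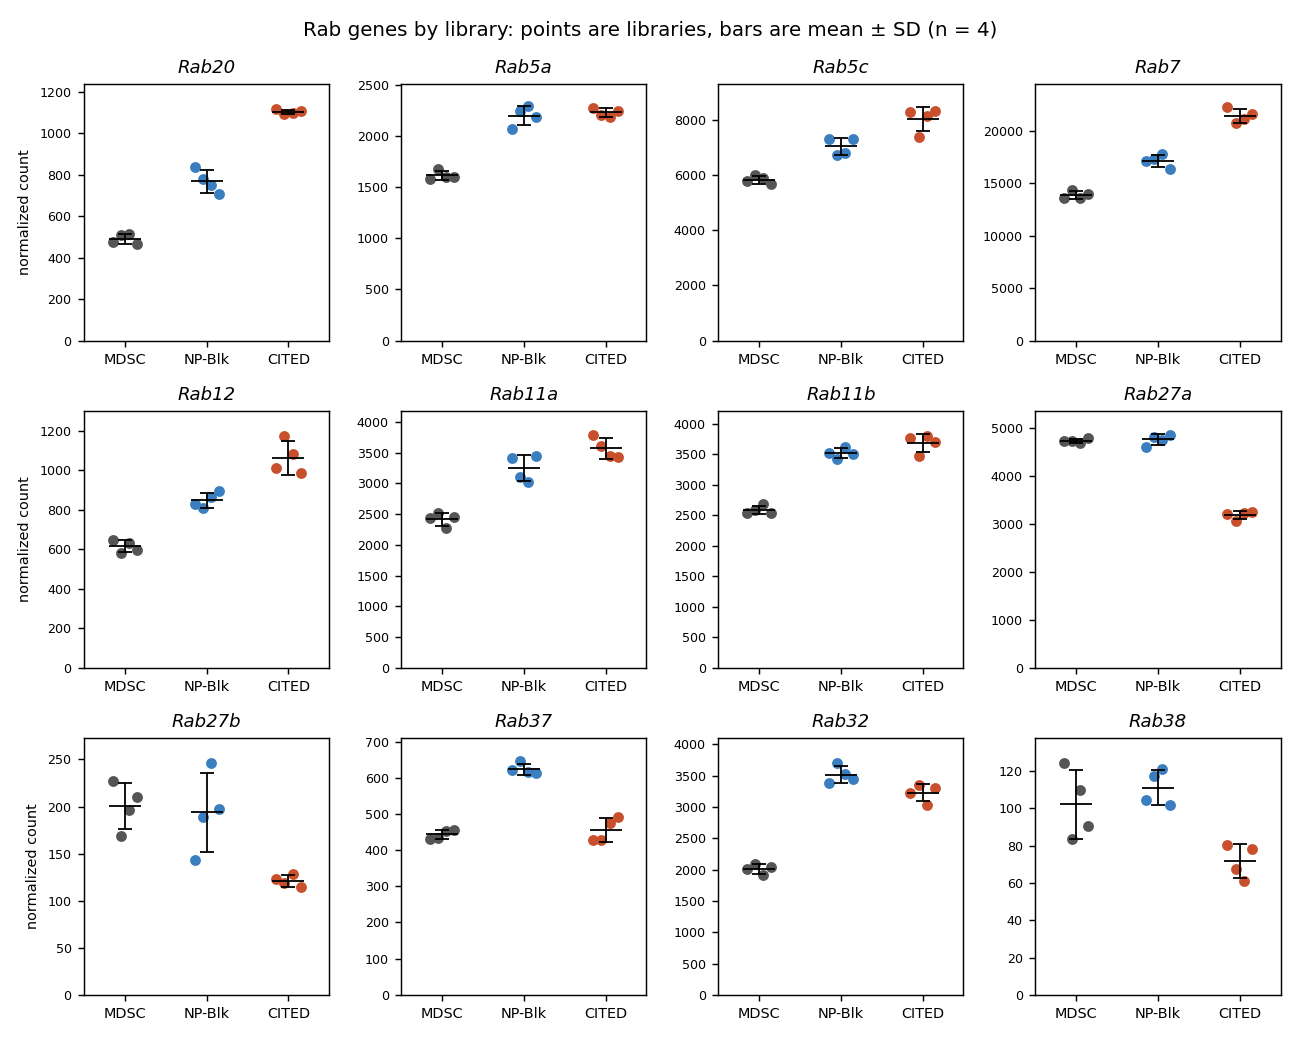
Normalized count (y axis, from 0) of 12 Rab genes in each library, with 4 points per group (x axis: MDSC, MDSC-NP-Blk shortened to NP-Blk, CITED) and bars for the mean ± SD. Rab20, Rab5c, Rab7, and Rab12 rise stepwise without overlap between groups, Rab5a, Rab11a, and Rab11b are higher in both NP groups, and Rab27a, Rab27b, and Rab38 are lower in CITED than in the other groups.

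Of the 6 late endosome and lysosome Rabs, 3 were higher (50%) and 0 lower in CITED than in MDSC, compared with 22.2% of all genes in each direction. In MDSC-NP-Blk 3 were higher (50%, compared with 19.9%) and 0 lower (18.6% of all). In CITED against MDSC-NP-Blk 2 were higher (33.3%, compared with 10.5%) and 0 lower (11.4% of all). Rab7, which directs fusion with lysosomes, had normalized counts of 13570, 14410, 13650, and 13950 for MDSC, 17150, 17320, 17790, and 16390 for MDSC-NP-Blk, and 22280, 20780, 21130, and 21640 for CITED. The groups stood in the order MDSC, MDSC-NP-Blk, and CITED without overlap. The log2 fold change was 0.63 ± 0.04 (adjusted p = 2.5e-14) in CITED against MDSC, 0.30 ± 0.04 (adjusted p = 4.8e-07) in MDSC-NP-Blk against MDSC, and 0.32 ± 0.04 (adjusted p = 4.5e-07) in CITED against MDSC-NP-Blk. With library size only the second of these was 0.04 and did not pass.

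Rab12, which directs the transferrin receptor to degradation, showed the same order. Its normalized counts were 649, 582, 633, and 596 for MDSC, 830.4, 807, 863, and 895 for MDSC-NP-Blk, and 1012, 1175, 1084, and 984 for CITED. Log2 fold changes were 0.79 ± 0.08 (adjusted p = 6.1e-11) in CITED, 0.46 ± 0.08 (adjusted p = 4.8e-06) in MDSC-NP-Blk, and 0.33 ± 0.07 (adjusted p = 0.0011) between CITED and MDSC-NP-Blk. Rab7b, of transport from endosomes back to the Golgi, was higher in CITED than in MDSC (0.26 ± 0.07, adjusted p = 0.0036), except with library size only.

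Rab9, which returns mannose 6-phosphate receptors from late endosomes to the Golgi, was higher in MDSC-NP-Blk than in MDSC (0.25 ± 0.08, adjusted p = 0.015), with a value of -0.01 under library size only. Its normalized counts were 579, 582, 495, and 593 for MDSC, 714, 669.6, 615, and 671 for MDSC-NP-Blk, and 691, 593, 606, and 633 for CITED. MDSC replicate 3 lay apart from the other MDSC libraries, and the log2 fold change without it was 0.19 and did not pass the test, nor did the 0.21 without MDSC-NP-Blk replicate 1. In CITED the difference from MDSC was 0.17 ± 0.08 (adjusted p = 0.11). Rab34, which positions lysosomes, had means of 70.3 ± 5.98 for MDSC, 57.6 ± 16.6 for MDSC-NP-Blk, and 72.4 ± 19.7 for CITED and did not pass in any comparison.

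Of the 5 recycling Rabs with a mean normalized count of at least 50, 4 were higher with NPs and Rab14 did not pass. Of all 9 genes, 4 were higher (44.4%) and 0 lower in CITED than in MDSC, compared with 22.2% of all genes in each direction. In MDSC-NP-Blk 4 were higher (44.4%, compared with 19.9%) and 1, Rab15, lower (11.1%, compared with 18.6%). In CITED against MDSC-NP-Blk 1 was higher (11.1%, compared with 10.5%) and 0 were lower (11.4% of all). The 4 genes higher in both comparisons with MDSC were Rab4b, Rab11a, Rab11b, and Rab35, with Rab4b and Rab35 not above 0 in MDSC-NP-Blk with library size only.

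Rab11a and Rab11b mark the slow recycling compartment. Rab11a had normalized counts of 2431, 2515, 2273, and 2450 for MDSC, 3415, 3100, 3026, and 3444 for MDSC-NP-Blk, and 3797, 3609, 3447, and 3425 for CITED, and Rab11b had 2538, 2588, 2676, and 2539 for MDSC, 3517, 3418, 3622, and 3501 for MDSC-NP-Blk, and 3772, 3470, 3798, and 3698 for CITED. For both genes the NP groups lay above MDSC and overlapped each other. Log2 fold changes in CITED were 0.56 ± 0.06 (adjusted p = 1.6e-10) for Rab11a and 0.51 ± 0.05 (adjusted p = 1.3e-10) for Rab11b. In MDSC-NP-Blk they were 0.42 ± 0.06 (adjusted p = 1.1e-07) and 0.44 ± 0.05 (adjusted p = 5.3e-09). Between CITED and MDSC-NP-Blk they were 0.14 ± 0.06 (adjusted p = 0.076) and 0.07 ± 0.05 (adjusted p = 0.38).

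Rab4b, of the fast route to the surface, had normalized counts of 885, 874, 759, and 807 for MDSC, 1064, 1019, 935, and 960.1 for MDSC-NP-Blk, and 1112, 1074, 1188, and 1097 for CITED. Groups rose stepwise without overlap, with 0.43 ± 0.07 (adjusted p = 5.9e-06) in CITED, 0.26 ± 0.07 (adjusted p = 0.0039) in MDSC-NP-Blk, and 0.17 ± 0.07 (adjusted p = 0.095) between them. With expression corrected for transcript length, the MDSC-NP-Blk value was 0.06 and no longer passed. Its relative Rab4a had 4 to 29 counts in a library and did not pass in any comparison. Rab35, which acts in recycling directly from the plasma membrane, was higher in CITED than in MDSC (0.36 ± 0.06, adjusted p = 6.1e-06) and than in MDSC-NP-Blk (0.20 ± 0.06, adjusted p = 0.014). Its smaller difference in MDSC-NP-Blk (0.16 ± 0.06, adjusted p = 0.037) passed neither with DESeq2 size factors (0.15) nor with the 8 libraries alone (0.14), nor without MDSC replicate 1 or 4 or MDSC-NP-Blk replicate 1 or 2 (0.13 to 0.15). Its difference between CITED and MDSC-NP-Blk did not pass without CITED replicate 3 (0.17). With library size only the values of Rab4b and Rab35 in CITED against MDSC were 0.15 and 0.08 and did not pass.

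Rab14, which moves cargo between endosomes and the Golgi, differed by 0.02 ± 0.05 and 0.00 ± 0.05 from MDSC and did not pass. Rab15, known from neuronal recycling endosomes, had only 7 to 48 counts in a library and log2 fold changes of -1.17 ± 0.46 (adjusted p = 0.041) in MDSC-NP-Blk and -0.78 ± 0.45 (adjusted p = 0.17) in CITED. The former rested on few counts, its libraries overlapped, and it did not pass without MDSC replicate 1, 3, or 4 or MDSC-NP-Blk replicate 2, 3, or 4 (-1.01 to -1.20), nor with a replicate block (-1.11).

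Of the 12 secretory Rabs tested, 2 were higher and 2 lower in CITED than in MDSC (16.7% each, compared with 22.2% of all genes in each direction). In MDSC-NP-Blk 4 were higher than in MDSC (33.3%, compared with 19.9%) and 0 lower (18.6% of all). In CITED 0 were higher than in MDSC-NP-Blk (10.5% of all) and 4 lower (33.3%, compared with 11.4%). The 4 lower genes were Rab27a, Rab27b, Rab37, and Rab44.

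Rab27a, which docks secretory granules and exosome-bearing endosomes at the plasma membrane, was lower in CITED. Its normalized counts were 4726, 4736, 4694, and 4793 for MDSC, 4616, 4820, 4760, and 4865 for MDSC-NP-Blk, and 3212, 3057, 3219, and 3250 for CITED. CITED lay below both other groups, which overlapped. The log2 fold change was -0.57 ± 0.05 (adjusted p = 1.5e-12) against MDSC and -0.58 ± 0.05 (adjusted p = 7.9e-12) against MDSC-NP-Blk, whereas MDSC-NP-Blk differed from MDSC by 0.01 ± 0.05 (adjusted p = 0.92). Rab27b, which shares these roles, had normalized counts of 227, 168, 196, and 210.3 for MDSC, 143, 189, 246, and 198 for MDSC-NP-Blk, and 123, 119, 129, and 114 for CITED. CITED was again below the others, with log2 fold changes of -0.73 ± 0.15 (adjusted p = 9.8e-05) against MDSC and -0.68 ± 0.15 (adjusted p = 0.00071) against MDSC-NP-Blk, and MDSC-NP-Blk and MDSC differed by -0.05 ± 0.14 (adjusted p = 0.84). Corrected for length, the difference of Rab27b between CITED and MDSC was -0.44, and that of Rab27a stayed at -0.57.

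Rab37, found on secretory granules, was higher in MDSC-NP-Blk than in the other groups. Its normalized counts were 431, 433, 454, and 455 for MDSC, 622, 646, 615, and 613 for MDSC-NP-Blk, and 428, 427, 474, and 492 for CITED. MDSC and CITED overlapped below MDSC-NP-Blk, with 0.50 ± 0.08 (adjusted p = 4.9e-06) in MDSC-NP-Blk against MDSC, -0.45 ± 0.08 (adjusted p = 5.3e-05) in CITED against MDSC-NP-Blk, and 0.04 ± 0.08 (adjusted p = 0.73) in CITED against MDSC. Rab44, a large Rab of granule-bearing leukocytes, had means of 5181 ± 226 for MDSC, 6369 ± 320.5 for MDSC-NP-Blk, and 5653 ± 592 for CITED. It was higher in MDSC-NP-Blk than in MDSC (0.30 ± 0.06, adjusted p = 7.7e-05) and slightly lower in CITED than in MDSC-NP-Blk (-0.17 ± 0.06, adjusted p = 0.031), where the libraries overlapped. That call was lost with the 8 libraries alone and without MDSC-NP-Blk replicate 1 or 4 or CITED replicate 1 or 2 (-0.11 to -0.16). The rise of Rab44 in MDSC-NP-Blk was lost with library size only (0.04).

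Rab27b, Rab37, and Rab44 are also known in mast cells, and the sum of 7 mast cell and basophil markers was 12570 to 13480 in MDSC, 14670 to 15910 with blank NPs, and 8480 to 8785 in CITED, with 7 of 7 lower in CITED than in MDSC-NP-Blk. The part of such cells in these differences was not tested. The sum of 4 megakaryocyte and platelet markers was 4598 to 5145, 6861 to 7343, and 7487 to 8201, with 2 higher and 1 lower in CITED than in MDSC. Eosinophil markers (4 genes) summed to 30890 to 36840, 24690 to 29520, and 10050 to 10250, with 1 higher and 2 lower in CITED than in MDSC.

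Rab8a and Rab3d were the 2 secretory Rabs higher in both NP groups than in MDSC. Rab8a, which guides post-Golgi vesicles to the surface, had normalized counts of 3236, 3188, 2922, and 2841 for MDSC, 4096, 4186, 3908, and 3954 for MDSC-NP-Blk, and 4601, 3952, 4058, and 4325 for CITED. Its NP groups overlapped each other above MDSC, with 0.47 ± 0.06 (adjusted p = 5.6e-09) in CITED and 0.41 ± 0.06 (adjusted p = 2.1e-07) in MDSC-NP-Blk. Rab3d, of regulated exocytosis, had means of 4753 ± 61.2 for MDSC, 5850 ± 211 for MDSC-NP-Blk, and 5419 ± 199 for CITED. The groups were separate, with 0.19 ± 0.05 (adjusted p = 0.0011) in CITED (-0.08 with library size only) and 0.30 ± 0.05 (adjusted p = 2.7e-06) in MDSC-NP-Blk. With library size only the latter was 0.04 and did not pass.

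The remaining secretory Rabs did not pass in any comparison. Rab8b, the relative of Rab8a, differed from MDSC by -0.08 ± 0.05 in CITED and -0.03 ± 0.05 in MDSC-NP-Blk. Rab10, of transport to the plasma membrane, differed by 0.12 ± 0.05 and 0.04 ± 0.05, although its CITED libraries lay above all others. Rab3a, best known at synapses, had means of 67.1 ± 16.6 for MDSC, 53.4 ± 17.0 for MDSC-NP-Blk, and 59.1 ± 8.75 for CITED, and Rab13, of epithelial junctions, had 53.0 ± 20.3 for MDSC, 82.4 ± 25.6 for MDSC-NP-Blk, and 74.6 ± 5.67 for CITED. The other tested secretory Rabs, Rab3b and Rab26, had at most 16 counts in a library.

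**Figure D3:**
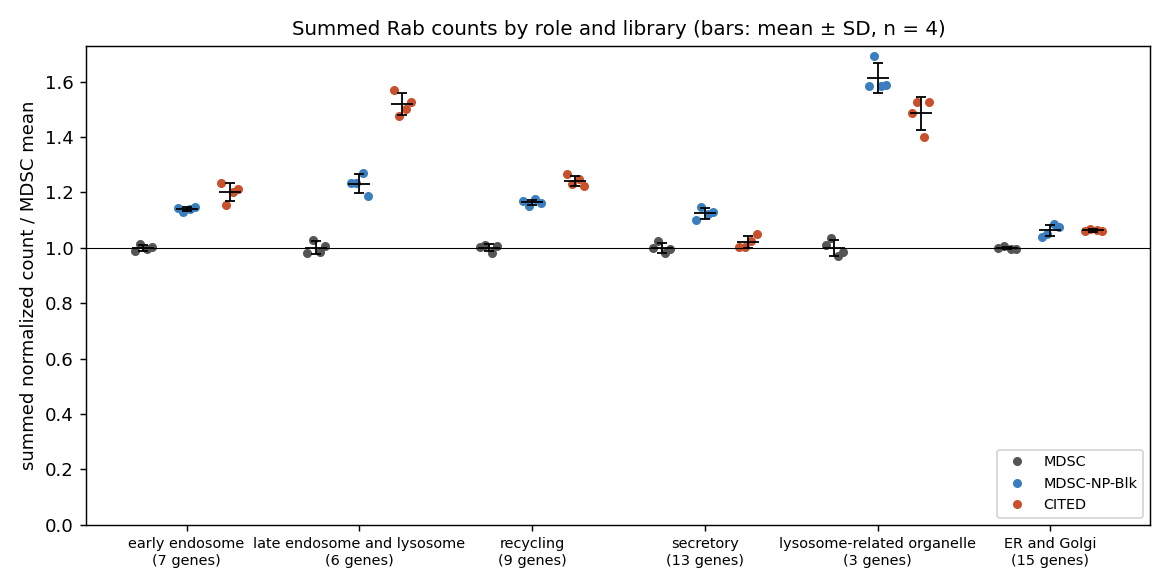
Summed normalized counts of the Rab genes of each role (x axis) in each library, divided by the MDSC mean (y axis, from 0), with points for libraries and bars for the mean ± SD (4 per group). Under TMM scaling late endosome Rabs rise stepwise and secretory Rabs are highest in MDSC-NP-Blk. Both NP groups lie above MDSC for early endosome, recycling, lysosome-related organelle, and ER and Golgi Rabs.

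Summed over a role, where the most abundant genes weigh most, late endosome Rabs amounted to normalized counts of 15899 ± 360, 19581 ± 539, and 24131 ± 632 (MDSC, MDSC-NP-Blk, and CITED in turn), most of it Rab7. Early endosome Rabs summed to 19907 ± 221, 22706 ± 149, and 23913 ± 668, and recycling Rabs to 12764 ± 160, 14864 ± 120, and 15844 ± 238. Their libraries rose from MDSC to MDSC-NP-Blk to CITED without overlap. Secretory Rabs summed to 27580 ± 476, 31010 ± 531, and 28154 ± 616, with MDSC-NP-Blk above both other groups. Rabs of lysosome-related organelles summed to 2498 ± 70.7, 4028 ± 133, and 3710 ± 148, and ER and Golgi Rabs to 21506 ± 89.1, 22848 ± 441, and 22855 ± 92.3. For these roles too, the libraries of both NP groups lay above those of MDSC. As a share of all Rab counts, late endosome Rabs had 15.4, 16.5, and 19.8% and secretory Rabs 26.7, 26.2, and 23.1% in MDSC, MDSC-NP-Blk, and CITED.

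Among Rabs of lysosome-related organelles, which build melanosomes and platelet granules, Rab32 and Rab38 differed in direction although they share exchange factors. Rab32 had normalized counts of 2008, 2087, 1908, and 2045 for MDSC, 3388, 3710, 3532, and 3443 for MDSC-NP-Blk, and 3218, 3349, 3038, and 3309 for CITED. Both NP groups were above MDSC, by 0.68 ± 0.05 (adjusted p = 5.2e-13) in CITED and 0.81 ± 0.05 (adjusted p = 1.7e-14) in MDSC-NP-Blk, and the CITED libraries lay below those of MDSC-NP-Blk with a difference that did not pass, -0.12 ± 0.05 (adjusted p = 0.094). Rab38 had normalized counts of 124, 83.7, 109.6, and 90.6 for MDSC, 105, 117, 121, and 102 for MDSC-NP-Blk, and 80.3, 67.2, 61.1, and 78.4 for CITED. CITED was below both other groups, with log2 fold changes of -0.51 ± 0.19 (adjusted p = 0.025) against MDSC and -0.63 ± 0.19 (adjusted p = 0.012) against MDSC-NP-Blk, and MDSC-NP-Blk differed from MDSC by 0.12 ± 0.18 (adjusted p = 0.64). The call of Rab38 against MDSC was lost with the length correction (-0.36) and without MDSC replicate 1 or 3 or CITED replicate 2 or 3 (-0.40 to -0.48). Rab29, the third of these genes, did not pass in any comparison.

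Of the 15 ER and Golgi Rabs, 3 were higher and 1 lower in CITED than in MDSC, 3 and 1 in MDSC-NP-Blk, and 1 and 2 in CITED against MDSC-NP-Blk. The 20% higher in both comparisons with MDSC lies near the 22.2% and 19.9% of all genes. The 6.67% lower in each is below the 22.2% and 18.6% of all genes. In CITED against MDSC-NP-Blk 6.67% were higher and 13.3% lower, compared with 10.5% and 11.4%. Rab2a, of transport between the ER and the Golgi, was higher in both NP groups (0.36 ± 0.05, adjusted p = 3.1e-07 and 0.34 ± 0.05, adjusted p = 1.1e-06), and so was Rab18, of lipid droplets and the ER (0.34 ± 0.06, adjusted p = 4e-06 and 0.29 ± 0.06, adjusted p = 8.5e-05). With library size only these calls were lost, with 0.09 and 0.08 for Rab2a and 0.07 and 0.02 for Rab18. Rab1b was higher in CITED than in MDSC (0.16 ± 0.05, adjusted p = 0.014, and -0.12 with library size only) and than in MDSC-NP-Blk (0.19 ± 0.05, adjusted p = 0.0077), whereas Rab1a did not pass in any comparison. Without CITED replicate 3 neither call of Rab1b passed (0.10 and 0.14), and the former did not pass without MDSC replicate 1 (0.13) or with the length correction (0.03). Rab6a, of transport within the Golgi, was lower in CITED than in MDSC-NP-Blk (-0.24 ± 0.05, adjusted p = 0.00023). Its difference from MDSC (-0.12 ± 0.05, adjusted p = 0.037) did not pass without MDSC replicate 1, 3, or 4 or any 1 of the CITED libraries (-0.11 to -0.13), with upper quartile normalization (-0.10), or with the length correction (-0.06).

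Low members of this role passed with less certainty. Rab33a, of the Golgi, had means of 64.8 ± 16.3 for MDSC, 92.0 ± 43.1 for MDSC-NP-Blk, and 49.8 ± 4.97 for CITED, and was lower in CITED than in MDSC-NP-Blk (-0.87 ± 0.27, adjusted p = 0.018), a call lost without MDSC-NP-Blk replicate 1 or 4 or CITED replicate 3 (-0.55, -0.78, and -0.81). Rab19 was lower in MDSC-NP-Blk than in MDSC (-0.63 ± 0.23, adjusted p = 0.028) with overlapping libraries, but did not pass without MDSC replicate 2 or 4 or MDSC-NP-Blk replicate 4 (-0.46 to -0.57). Rab6b, the relative of Rab6a, was higher in MDSC-NP-Blk (0.52 ± 0.19, adjusted p = 0.028), but did not pass without MDSC replicate 3 or 4 or MDSC-NP-Blk replicate 2 or 4 (range over all libraries left out, 0.43 to 0.61). The call of Rab6b was also lost with library size only (0.26).

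Among the Rabs with other roles, Rab24, linked to autophagy, was higher in CITED (0.35 ± 0.07, adjusted p = 5.5e-05) and in MDSC-NP-Blk (0.32 ± 0.07, adjusted p = 0.00028) than in MDSC, as was Rab40c, which acts in ubiquitin ligase complexes (0.34 ± 0.08, adjusted p = 0.00071 and 0.24 ± 0.08, adjusted p = 0.016, the latter -0.02 with library size only). The latter call was lost without MDSC replicate 1 (range over all libraries left out, 0.22 to 0.28) and with the length correction (0.20), as was that of Rab24 in MDSC-NP-Blk with the correction (0.11). With library size only Rab24 had 0.08 in CITED and 0.06 in MDSC-NP-Blk, Rab40c had 0.07 in CITED, and these calls were lost. Lower in CITED than in MDSC were Rab23, a regulator of Hedgehog signaling (-0.41 ± 0.14, adjusted p = 0.017), and Rab28, known from cilia (-0.23 ± 0.08, adjusted p = 0.015). The call of Rab23 was lost without MDSC replicate 2 or 3 or CITED replicate 2 (-0.29 to -0.37) and with the length correction (-0.29), and that of Rab28 without MDSC replicate 1 or 4 or CITED replicate 3 (-0.20 to -0.21).

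Sorted by libraries that did not overlap, 5 of the 45 Rab genes rose stepwise from MDSC to MDSC-NP-Blk to CITED (11.1%, compared with 7.57% of 10556 genes), namely Rab4b, Rab5c, Rab7, Rab12, and Rab20. The first step depended on TMM scaling in Rab4b, Rab5c, and Rab7, whose log2 fold changes between MDSC-NP-Blk and MDSC were 0.00, 0.01, and 0.04 with library size only and did not pass. In 9 both NP groups overlapped above MDSC (20% and 15.5%), and in 3, Rab3d, Rab21, and Rab32, MDSC-NP-Blk was highest and MDSC lowest (6.67% and 1.45%). CITED lay below both other groups in 4, Rab6a, Rab27a, Rab27b, and Rab38 (8.89% and 4.56%), above both in 3 (6.67% and 4.65%), and below MDSC with MDSC-NP-Blk highest in 0 (0.682% of all). In Rab37 alone MDSC-NP-Blk lay above both others, which overlapped (2.22% and 1.93%). No Rab gene had both NP groups below MDSC, overlapping (0 of 45, compared with 13.5%) or stepwise (0 of 45, compared with 6.61%), and 20 followed none of these orders (44.4% and 43.5%).

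Partners that switch, deliver, and read out Rab proteins were counted in the same fit. Of 76 such genes, 75 were tested. In CITED against MDSC 17 were higher (22.7%) and 22 lower (29.3%), compared with 22.2% and 22.2% of all genes. In MDSC-NP-Blk against MDSC 16 were higher (21.3%) and 21 lower (28%), compared with 19.9% and 18.6%. In CITED against MDSC-NP-Blk 8 were higher (10.7%) and 9 lower (12%), near the 10.5% and 11.4% of all genes.

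Ehd1, an ATPase that works with Rab11 and Rab35 on recycling endosomes, had the largest rise in both NP groups among the machinery genes with a mean of at least 50. Its normalized counts were 6571, 7030, 6616, and 6416 for MDSC, 14680, 15590, 15830, and 14000 for MDSC-NP-Blk, and 20040, 20040, 21170, and 20510 for CITED. The 3 groups did not overlap, with 1.62 ± 0.05 (adjusted p = 4.5e-24) in CITED, 1.17 ± 0.05 (adjusted p = 8.6e-20) in MDSC-NP-Blk, and 0.44 ± 0.05 (adjusted p = 3.1e-09) between them. The Rab11 effectors were divided. Rab11fip5 rose stepwise (0.83 ± 0.06, adjusted p = 7.4e-14 in CITED and 0.39 ± 0.06, adjusted p = 3.9e-06 against MDSC-NP-Blk) and Rab11fip1 rose in both NP groups (0.58 ± 0.06, adjusted p = 6.5e-10 and 0.60 ± 0.06, adjusted p = 5e-10). Rab11fip4 was lower than in MDSC in both CITED (-0.79 ± 0.10, adjusted p = 1.8e-08) and MDSC-NP-Blk (-0.50 ± 0.10, adjusted p = 6.2e-05). Evi5, a GTPase-activating protein for Rab11, was lower than in MDSC in both MDSC-NP-Blk (-0.55 ± 0.08, adjusted p = 1.3e-06) and CITED (-0.39 ± 0.08, adjusted p = 0.0002). Sh3bp5, an exchange factor for Rab11, was lower in CITED than in MDSC-NP-Blk (-0.35 ± 0.08, adjusted p = 0.0012).

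Of 17 Rab5 partners, 4 were higher (23.5%) and 6 lower (35.3%) in CITED than in MDSC, compared with 22.2% of all genes in each direction. In MDSC-NP-Blk 3 were higher (17.6%) and 6 lower (35.3%), compared with 19.9% and 18.6%. In CITED against MDSC-NP-Blk 3 were higher (17.6%) and 1 lower (5.88%), compared with 10.5% and 11.4%. Gapvd1, an exchange factor for Rab5, was lower than in MDSC in both CITED (-0.47 ± 0.06, adjusted p = 1.1e-07) and MDSC-NP-Blk (-0.34 ± 0.06, adjusted p = 3.7e-05). After the length correction its values were -0.14 and -0.11. Rin2 and Rin3, other such factors, were higher with NPs. Rin2 had log2 fold changes of 0.62 ± 0.06 (adjusted p = 1.5e-11) in CITED and 0.51 ± 0.06 (adjusted p = 2.7e-09) in MDSC-NP-Blk. Those of Rin3 were 0.36 ± 0.05 (adjusted p = 1.1e-07) in CITED and 0.47 ± 0.05 (adjusted p = 4.4e-10) in MDSC-NP-Blk. The tethering effectors Eea1 and Rabep1 were higher in CITED than in MDSC-NP-Blk (0.26 ± 0.06, adjusted p = 0.00076 and 0.36 ± 0.08, adjusted p = 0.00042). Ankfy1, another Rab5 effector, was lower in MDSC-NP-Blk than in MDSC (-0.33 ± 0.06, adjusted p = 1.8e-05), and its value with the length correction was -0.10. In CITED against MDSC the correction moved Ankfy1 from -0.30 to 0.02, Appl1 from -0.39 to -0.08, and Rbsn from -0.30 to -0.12. Appl2 and Vps45, also lower there, had -0.36 and -0.30 before the correction and -0.35 and -0.33 after it. Mon1a, part of the exchange factor for Rab7, was higher in CITED than in MDSC-NP-Blk (0.39 ± 0.11, adjusted p = 0.0084).

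The genes that escort all Rab proteins moved apart. Gdi2, which extracts GDP-bound Rabs from membranes, had means of 12476 ± 309.5 for MDSC, 18232 ± 653 for MDSC-NP-Blk, and 16207 ± 648 for CITED. It was higher in MDSC-NP-Blk (0.55 ± 0.04, adjusted p = 2.9e-12) and in CITED (0.38 ± 0.04, adjusted p = 7.3e-09) than in MDSC. In CITED it was lower than in MDSC-NP-Blk (-0.17 ± 0.04, adjusted p = 0.0042). Chml, which presents new Rabs for prenylation, fell stepwise, with means of 726 ± 25.6 for MDSC, 525 ± 46.0 for MDSC-NP-Blk, and 374 ± 37.2 for CITED, and log2 fold changes of -0.95 ± 0.09 (adjusted p = 2.3e-11) in CITED, -0.47 ± 0.08 (adjusted p = 2.6e-05) in MDSC-NP-Blk, and -0.49 ± 0.09 (adjusted p = 6.2e-05) between them.

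Among partners of secretory Rabs, Rab3il1, an exchange factor for Rab8, was lower in CITED (-1.02 ± 0.13, adjusted p = 4.1e-08) and MDSC-NP-Blk (-0.95 ± 0.13, adjusted p = 1.9e-07) than in MDSC, in which its mean was 346 ± 41.5. Rab3gap2, part of a complex acting on Rab3 and Rab18, was lower in both (-0.63 ± 0.06, adjusted p = 8.7e-11 and -0.44 ± 0.06, adjusted p = 2.8e-07), with -0.35 in CITED after the length correction. Sytl3, a Rab27 effector, had normalized counts of 43.2, 48.5, 43.3, and 31.2 for MDSC, 101, 66.9, 87.6, and 88.9 for MDSC-NP-Blk, and 42.6, 26.9, 25.5, and 34.8 for CITED. As for Rab37, MDSC-NP-Blk was highest, and CITED was lower than MDSC-NP-Blk, with a log2 fold change of -1.40 ± 0.26 (adjusted p = 0.0001). The Rab27 effectors Unc13d and Sytl1 had higher means, 2094 and 387 over the 12 libraries. Unc13d was slightly higher in CITED than in MDSC (0.15 ± 0.06, adjusted p = 0.047), with overlapping libraries and -0.12 with library size only. Sytl1 was lower in CITED than in MDSC-NP-Blk (-0.39 ± 0.11, adjusted p = 0.011) and did not pass against MDSC. The Rab27 effectors Sytl2, Sytl5, Myrip, and Exph5 had at most 3 counts in any library, so no difference was detectable at this depth. Ankrd27, an exchange factor for Rab21 that also binds Rab32 and Rab38, was lower than in MDSC in both NP groups. Its log2 fold change was -0.58 ± 0.08 (adjusted p = 4.9e-08) in CITED and -0.36 ± 0.07 (adjusted p = 0.00014) in MDSC-NP-Blk.

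**Figure D4:**
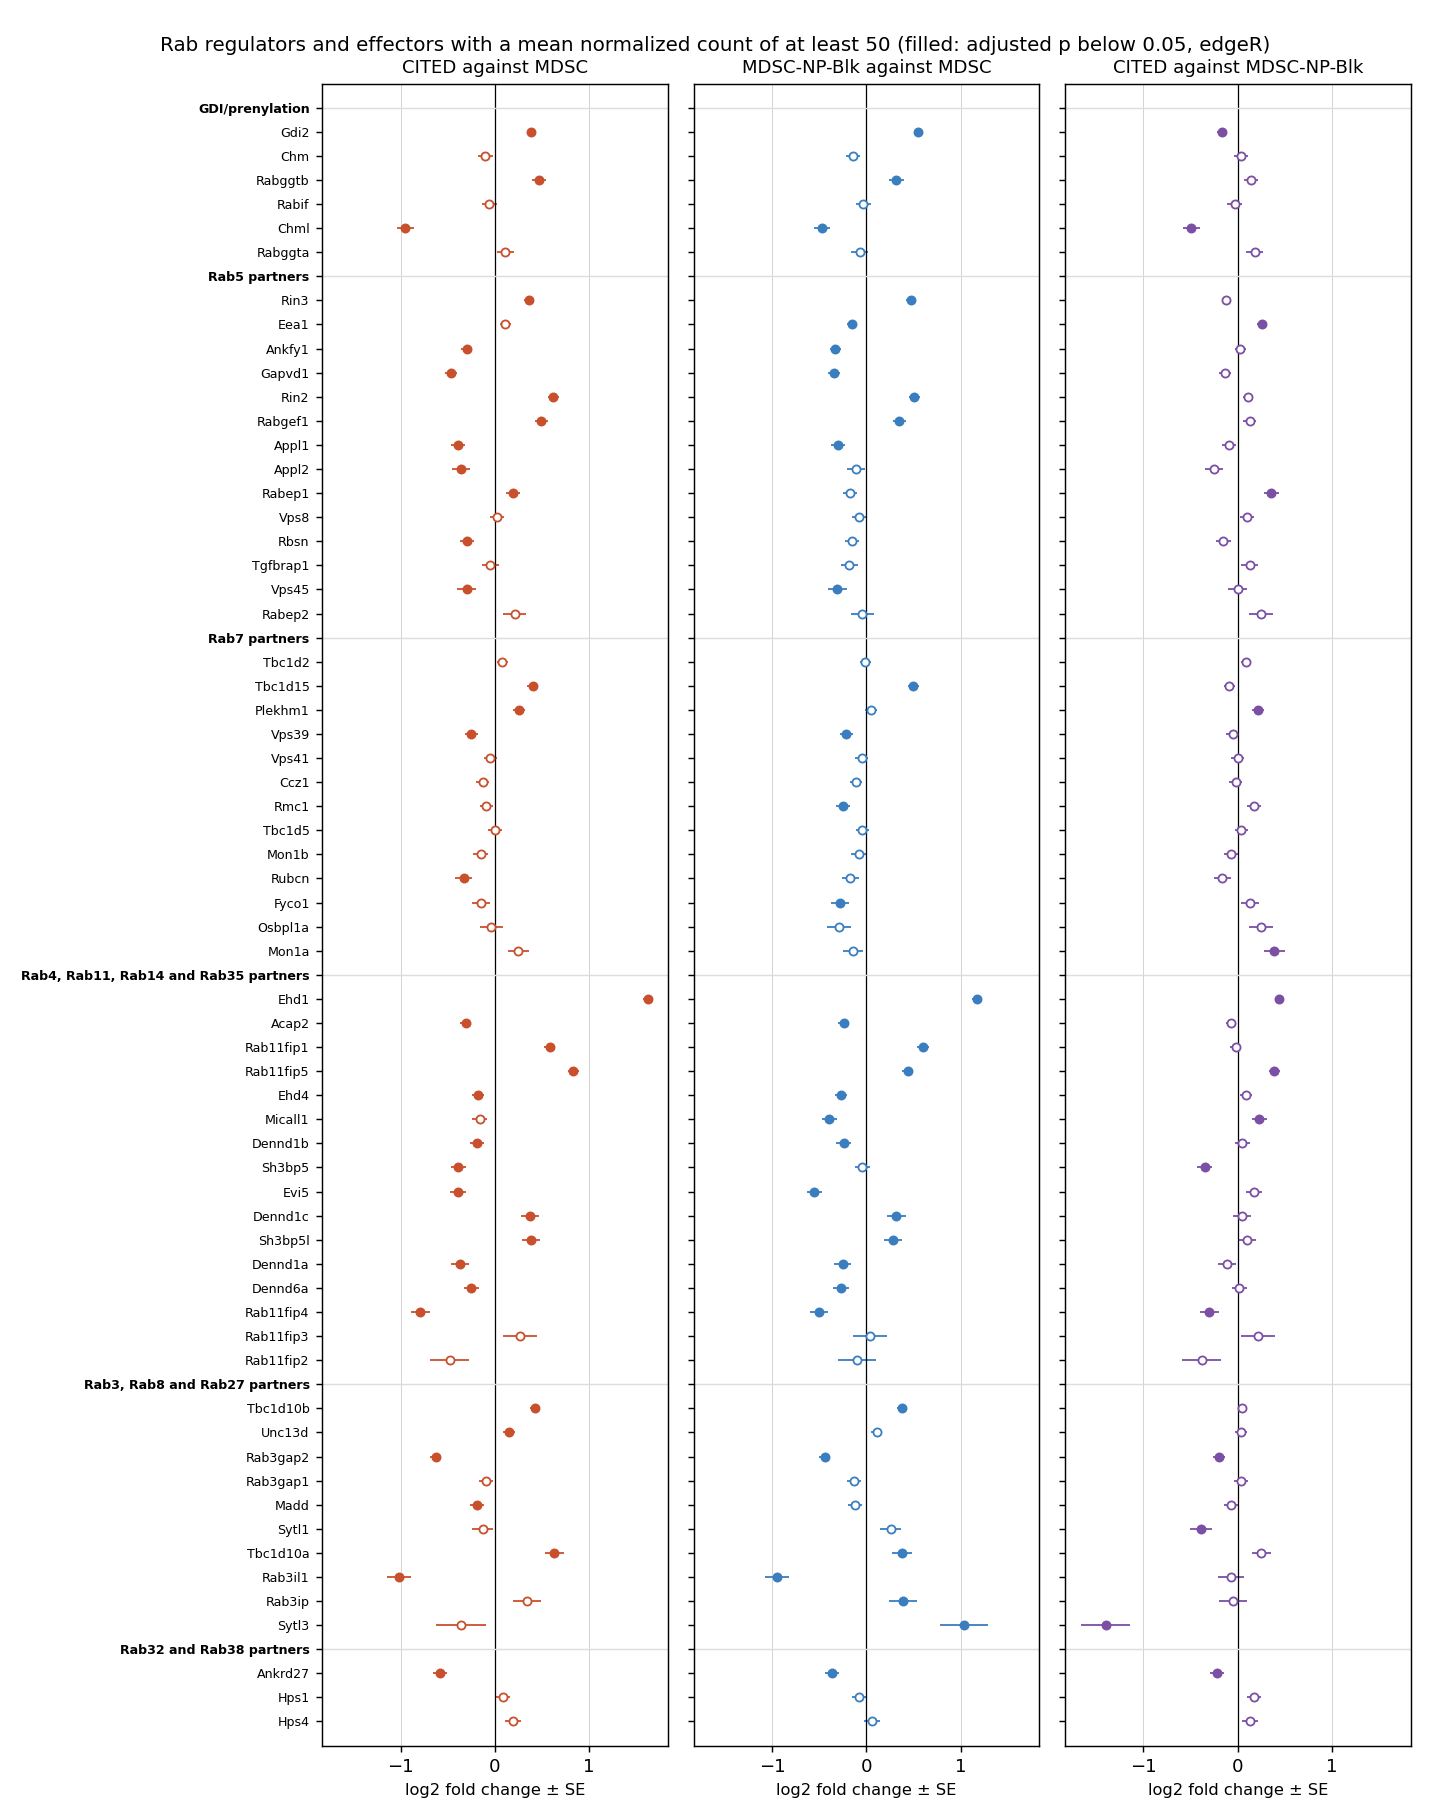
Log2 fold change ± SE (x axis, TMM scaling) of Rab regulators and effectors with a mean normalized count of at least 50, ordered by the Rab they act on (y axis), in the 3 comparisons over 4 and 4 libraries. Filled points have an adjusted p below 0.05 in edgeR and lie on both sides of 0 in each comparison, with Ehd1 the farthest right in both comparisons with MDSC.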

How the data were processed

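Poly(A) RNA of 12 libraries was sequenced in pairs, and the authors deposited whole-number counts per symbol, quantified with Salmon 1.4.0 on GRCm39 and summed with tximport in R 4.3.2, neither normalized nor filtered. Groups came from the titles. An entry with an empty symbol was left out. The Rab genes, their roles, and the partner and marker lists were chosen with earlier results of these data known.

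Symbols whose counts summed to at least 2 (17676) were fitted together in edgeR 4.0.16 (R 4.3.3) with TMM factors, group as the only term, and the quasi-likelihood test. P-values were adjusted by Benjamini-Hochberg over all genes tested and measure the spread between these libraries, whose biological coefficient of variation was 9.03%. TPM used canonical transcripts of GENCODE release 39, since the release of the authors is not given in the sources used here. A floor of 3 counts covers counting error only.

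Rab genes averaging at least 50 normalized counts may be named. Full statistics go to the 8 with the lowest p per direction and comparison, those past a log2 fold change of 1 in size, and 15 endosomal and secretory genes whatever their change. Partners named are the 5 with the lowest p per direction and comparison, apart from a few not reported here, which stay in the counts. Other partners and the neural genes were chosen after their values were seen.

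Alternatives were DESeq2 1.42.0, DESeq2 size factors, upper quartile, or library size alone as scaling, no filter or filterByExpr, fits on 8 libraries, a replicate block, a loess correction for length (span 0.5), and fits leaving out 1 library. The fit was also run on simulated data, and the outcome is not given here. Figures used Python 3.11.15 and matplotlib 3.10.9.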

Additional observations from a re-analysis of the deposited data

Results flagged for a closer look

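In 81 groups of 4 libraries, 1 for each of 27 Rab genes and 3 groups, a single library was compared with the range of its group, a test that flags about 1 in 20 groups by chance. It picked out 1 value, the normalized count of 494.6 of Rab9 in MDSC replicate 3, where the other MDSC libraries had 579 to 593.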

How the results depend on the processing

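Scaling by library size only gave 9 Rab genes higher and 17 lower in CITED against MDSC and 8 higher and 14 lower in MDSC-NP-Blk against MDSC. It turned the log2 fold change to -0.12 for Rab1b and -0.08 for Rab3d in CITED against MDSC, and to -0.11 for Rab35, -0.01 for Rab9, and 0 for Rab4b in MDSC-NP-Blk against MDSC. The setting leaves out the TMM factors, which shifts all genes. The length correction gave 25 Rab genes higher and left 3 lower in CITED against MDSC. Length bias differed between MDSC and the NP groups. The rank correlation of transcript length with a gene's deviation from its mean over the 12 libraries was 0.218 to 0.346 in MDSC. In CITED it was -0.341 to -0.187. In MDSC-NP-Blk it was -0.422 and -0.243 for replicates 1 and 4, and -0.0471 and 0.0921 for replicates 2 and 3. The part of this bias in the calls was not tested further. With the added fold change threshold 1 and 0 Rab genes were higher and lower in CITED against MDSC, 0 and 1 in MDSC-NP-Blk against MDSC, and 0 and 0 in CITED against MDSC-NP-Blk. Of the 75 partner genes tested, 3, 2, and 1 passed in either direction. Over all genes, 3.28% were higher and 6.7% lower in the first comparison, 1.88% and 2.86% in the second, and 0.651% and 2% in the third.

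When each library was left out, 18 to 20 Rab genes were higher and 3 to 6 lower in CITED against MDSC, the lowest without MDSC replicate 1 or 3 or CITED replicate 2 or 3. The range was 19 to 23 higher and 0 to 3 lower in MDSC-NP-Blk against MDSC, where 0 were lower without MDSC replicate 4 or MDSC-NP-Blk replicate 4 and 1 without MDSC replicate 2 or 3. In CITED against MDSC-NP-Blk 4 to 8 were higher and 5 to 7 lower. Partner genes numbered 34 to 40, 30 to 38, and 13 to 17.

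Libraries with the same replicate number correlated by -0.0592 to 0.14 over 10543 genes, so the numbers were not taken to pair samples. With a replicate block, Rab15 in MDSC-NP-Blk against MDSC (-1.11) was the only Rab call lost, 20 Rab genes were higher and 6 lower in CITED against MDSC, 22 and 2 in MDSC-NP-Blk, and 7 and 7 in CITED against MDSC-NP-Blk, and 40, 39, and 18 partner genes passed. Among 51 results for single genes, 436 of 459 values under the other settings and 569 of 612 with 1 library left out kept their direction and side of the threshold, and 5 and 0 reversed. Depth limits the 14 low Rab genes.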
